A study of Caenorhabditis elegans with 26 samples.

Results

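Worms that carried both rde-3 and mut-16(DE6R) were compared with wild-type worms (WT) by sequencing their small RNAs, to see at which genes small RNAs were lost and at which they persisted. The comparison used 4 of the series' 26 libraries, chosen by their titles: 2 of rde-3 mut-16(DE6R) and 2 of WT. The labels give whole Caenorhabditis elegans worms, untreated, and name neither the rde-3 allele, the strain, the stage nor a separate culture for each library, so p-values measure only how far these particular libraries spread, and that spread may be technical. The strain with mut-16(DE6R) and no rde-3 in its label (2 libraries) is given beside the results, and the 20 libraries of strains with a tethered protein were not used. Reads were counted per gene, and a level is given as CPM, the reads scaled to a common library size with TMM factors, a scaling that sets the bulk of genes equal between libraries.

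MUT-16 is a largely disordered scaffold protein that assembles Mutator foci, germline granules next to P granules in which RNA-dependent RNA polymerases copy silenced transcripts into antisense 22G small RNAs. RDE-3, the product of mut-2, extends the template transcripts at their ends with alternating U and G. The 22G RNAs made there are loaded on WAGO Argonautes and silence pseudogenes, transposons and other targets. A separate pool of 22G RNAs, made by the polymerase EGO-1 and loaded on the Argonaute CSR-1, covers expressed germline genes and is known not to need the mutator proteins.

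The rde-3 mut-16(DE6R) libraries held 515300 and 584502 reads on genes, the mut-16(DE6R) libraries 620047 and 1571194, and the WT libraries 1149904 and 1359593. A single gene, F56H9.8, took 55.5% of the reads in each rde-3 mut-16(DE6R) library, against 51.7% and 49.5% in the WT libraries, and another gene, gpa-9, lies on its opposite strand. On the TMM scale used below it stood at 51.0% of WT, and it turns to a log2 fold change of 0.13 with scaling by library totals. Mitochondrial genes took 4.39% and 4.58% of the reads in rde-3 mut-16(DE6R) and 2.41% and 2.20% in WT. The genes that encode the altered proteins were not informative about the genotype: mut-16 had 7 and 8 reads in rde-3 mut-16(DE6R) 5 and 2 in WT. Its log2 fold change was 1.16 ± 0.69 (SE, n = 2 each), with fold change of 1.16 ± 0.69 (SE, n = 2 each) with an adjusted p of 0.108 by edgeR's quasi-likelihood test (0.000753 when scaled by library totals). The mut-2 gene had 0 and 2 reads in rde-3 mut-16(DE6R) and 0 and 1 in WT. These are small RNAs on the genes and not their mRNA, so they do not check the labels. As whole worms were used, fewer cells of a type and less small RNA per cell cannot be told apart.

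Of 5312 genes tested, 2015 carried fewer small RNAs in rde-3 mut-16(DE6R) than in WT (37.9% of those tested) and 1424 carried more (26.8%), together 64.7%, at an adjusted p under 0.05. The split depends on the scaling. With libraries scaled by their total reads, 1544 genes were lower and 2944 higher, and with upper-quartile scaling 1742 were lower and 2369 higher. Those scalings moved the median log2 fold change of all tested genes to 1.06 and 0.50, where it was -0.03 with TMM. Each fold change below is therefore relative to most other genes, and no spike-in that would set an absolute level is named in the sources used here.

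To ask what was lost and what persisted, the 3714 genes with a mean of at least 25 CPM in WT were sorted into classes by their level in rde-3 mut-16(DE6R). These genes held 94.1% of the WT reads on nuclear genes other than F56H9.8. Small RNAs were lost at 1203 of them (32.4%), with an adjusted p under 0.05 and a fitted level at most 10% of WT. They were reduced at 410 (11.0%), which were at least 2-fold lower but above 10%. They persisted at 1078 (29.0%), defined by a 95% interval of the fold change that lay wholly within 2-fold either way. At 206 genes (5.55%) they were raised at least 2-fold, and at 817 (22.0%) the interval crossed a 2-fold bound and the change was not resolved. The levels of the 2 groups of libraries did not overlap at 87.6% of the genes.

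The fold changes had 2 peaks with fewer genes between them. The number of genes per unit of log2 fold change was 462 between -6 and -5, dropped to 147 between -3 and -2, and was 1350 between 0 and 1. The median lost gene was at a log2 fold change of -5.22 (quartiles -5.84 and -4.44), which is 2.68% of WT. Of the 1203 lost genes, 92 had no read in either rde-3 mut-16(DE6R) library and 476, those included, had up to 3 over both. With the genes at 0 set to a floor of 3 reads over the group, the median was -5.04. Persisting genes had a median of 0.23, with quartiles of -0.06 and 0.43, and raised genes one of 1.14. These values describe how the classes were drawn. They are not tests.

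**Figure D1:**
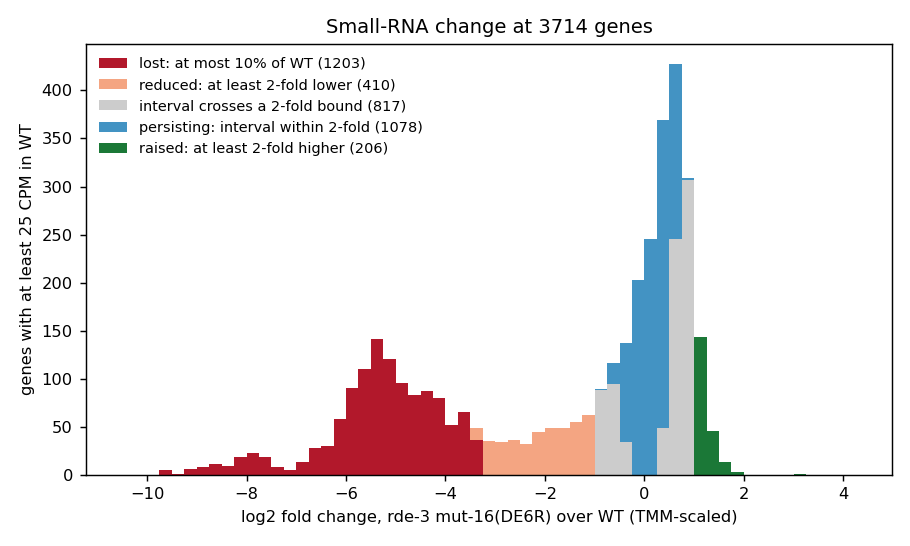
Number of genes with at least 25 CPM in WT (vertical axis) by log2 fold change of rde-3 mut-16(DE6R) over WT (horizontal axis, TMM-scaled), coloured by class. Lost genes lie in a broad peak around their median of -5.22, with fewer genes between it and the narrower peak of persisting genes around 0.23.

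The share of reads taken by each class shows its size, as a description, since the classes were drawn from TMM-scaled levels of the same libraries. Lost genes took 4.98% ± 0.147 of the nuclear reads outside F56H9.8 in rde-3 mut-16(DE6R), against 64.9% ± 0.270 in WT (SD, n = 2 each). Persisting genes took 46.4% ± 0.0516 in rde-3 mut-16(DE6R) and 15.8% ± 0.00564 in WT, and raised genes 9.42% ± 0.111 in rde-3 mut-16(DE6R) and 1.598% ± 0.00539 in WT. Genes that were loaded but not resolved took 24.0% in rde-3 mut-16(DE6R) and 6.80% in WT. A share can rise because others fall. On the TMM scale, the summed level of lost genes in rde-3 mut-16(DE6R) was 3.03% of that in WT, while the persisting genes together stood at 116% of WT. With mut-16(DE6R) alone the genes of the lost class took 37.2% ± 0.0943 of those reads, between the values of the double mutant and WT, and their summed level was 30.8% of WT. The comparisons of both mutant strains use the same WT libraries. Set directly against mut-16(DE6R), the double mutant was lower at 1393 tested genes (26.2%) and higher at 878 (16.5%).

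**Figure D2:**
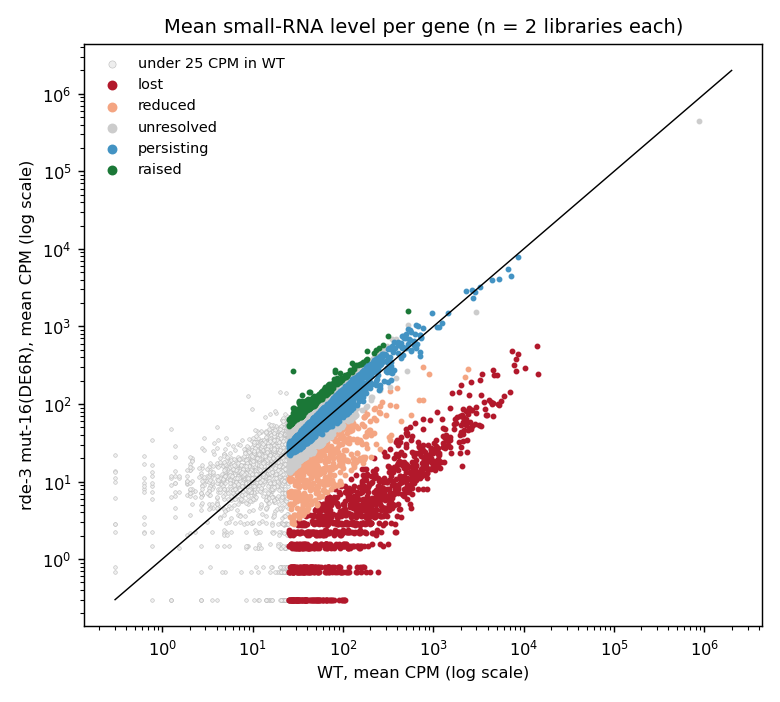
Mean CPM in rde-3 mut-16(DE6R) (vertical axis, log scale) against mean CPM in WT (horizontal axis, log scale), 1 point per gene, n = 2 libraries each, coloured by class, with genes under 25 CPM in WT in light grey. Genes with 0 reads in rde-3 mut-16(DE6R) are drawn at the lowest level shown. Lost genes form a cloud well below the diagonal that reaches the highest WT levels, and persisting genes follow the diagonal.

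The more small RNA a gene carried in WT, the more often it was lost. Among the 1335 genes with 25 to 50 CPM in WT, 22.0% were lost and 22.8% persisted. Among the 837 with 100 to 300 CPM, 38.9% were lost and 33.8% persisted, and among the 134 with at least 1000 CPM, 86.6% were lost and 10.4% persisted. The class of persisting genes needs a narrow interval, which genes with few reads seldom reach, so the low shares at 25 to 50 CPM also reflect depth. Per kilobase of exon, the median WT level was 106 CPM for lost genes and 43.6 CPM for persisting genes, and lost genes had shorter exonic sequence, with a median of 1132 bases against 1797 bases.

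The most heavily loaded lost genes kept a few percent of their small RNAs. Positions here and below are from the WBcel235 annotation, and the log2 fold changes are of rde-3 mut-16(DE6R) over WT with their SE. The pseudogene Y17D7C.3 (chromosome V, 18720589 to 18723771) had 232 and 261 CPM in rde-3 mut-16(DE6R) and 14285 and 14149 CPM in WT. Its log2 fold change of -5.85 ± 0.10 left 1.74% of WT (95% interval 1.52 to 1.98%). W09C5.12 (chromosome I, 13661522 to 13662332), which overlaps a pseudogene on the opposite strand, had 565 and 569 CPM in rde-3 mut-16(DE6R) and 13623 and 14557 CPM in WT, or 4.02% of WT. F02C12.3 on the X chromosome (13396973 to 13397782) had 274 and 313 CPM in rde-3 mut-16(DE6R) and 10077 and 10816 CPM in WT. In each of these 3 genes both mutant libraries were far below both WT libraries, and the 2 libraries of a group lay close together. The next 5 genes by WT level, the pseudogenes Y39E4B.14 and F37H8.2 and the genes Y71A12B.10, bath-45 and W04A8.9, kept between 3.24% (F37H8.2) and 6.47% (W04A8.9) of the WT level.

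Few highly loaded genes persisted, and most of those that topped the list were mitochondrial. All 12 mitochondrial genes fell in the persisting class with TMM, but 2 did with scaling by library totals, where 7 were raised, and 0 with totals that leave out F56H9.8, where 10 were raised. MTCE.26, the most loaded, had 7707 and 8139 CPM in rde-3 mut-16(DE6R) and 9005 and 8469 CPM in WT, which is 90.7% of WT (95% interval 83.7 to 98.4%), and its direction turns under scaling by library totals, upper quartile or mitochondrial reads. The nuclear gene with the most small RNA among those that persisted was ugt-42 (chromosome V, 647188 to 649763), named as a UDP-glucuronosyltransferase. It had 4288 and 4732 CPM in rde-3 mut-16(DE6R) and 6871 and 7628 CPM in WT, or 62.2% of WT (57.3 to 67.6%). Its level was lower in both double mutant libraries than in both WT libraries on this scale, and it turns to a log2 fold change of 0.42 with scaling by library totals. In mut-16(DE6R) it had 1860 and 2011 CPM.

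Other persisting genes include 2 looked up after their values were seen, F23A7.5 and tebp-2. F23A7.5 on the X chromosome (16228922 to 16237185) had 3012 and 2764 CPM in rde-3 mut-16(DE6R) and 2279 and 2337 CPM in WT, 125% of WT. tebp-2, which encodes a telomere-binding protein, had 1123 and 1121 CPM in rde-3 mut-16(DE6R) and 1227 and 1284 CPM in WT, or 89.3% of WT (80.6 to 98.9%). unc-103, a gene for a potassium channel, had 990 and 1005 CPM in rde-3 mut-16(DE6R) and 1028 and 1193 CPM in WT. The intervals of these 3 genes lie within a 2-fold range, as the persisting class requires. The median loss in the lost class was more than 30-fold, a contrast that follows from how the classes were drawn.

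**Figure D3:**
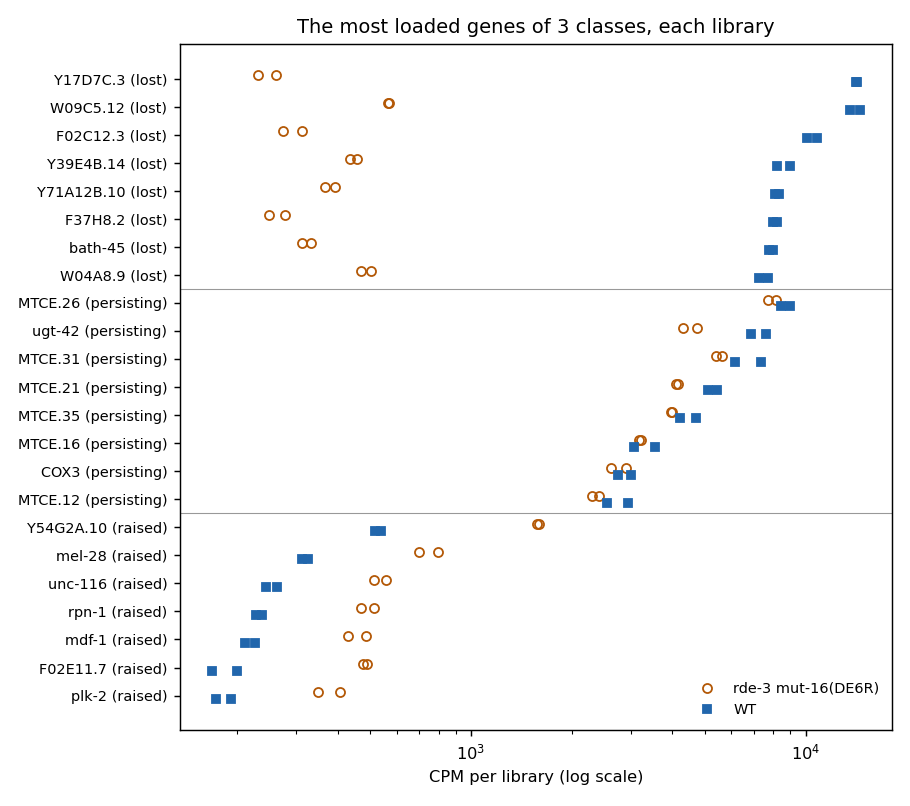
CPM in each library (horizontal axis, log scale) for the 8 most loaded genes of the lost and of the persisting class and 7 of the 8 most loaded raised genes, with open circles for rde-3 mut-16(DE6R) and squares for WT. The 2 libraries of a group nearly coincide, and at lost genes the open circles lie far to the left of the squares.

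Raised genes were led by Y54G2A.10, with 1599 and 1575 CPM in rde-3 mut-16(DE6R) and 539 and 515 CPM in WT, 301% of WT (95% interval 269 to 337%). mel-28, which encodes a chromatin and nuclear pore protein, had 698 and 796 CPM in rde-3 mut-16(DE6R) and 311 and 325 CPM in WT, and its log2 fold change was 1.23 ± 0.10. Others among the most loaded were F02E11.7 and 4 genes with known roles in cell biology: unc-116, a kinesin heavy chain, rpn-1, a proteasome subunit, mdf-1, a spindle checkpoint protein, and plk-2, a Polo-like kinase. These 5 stood between 207% (plk-2) and 259% (F02E11.7) of WT. All 206 raised genes were protein-coding, but so were most genes of every class. Of the 1078 persisting genes 1067 were protein-coding, of the 817 not resolved 811, of the 410 reduced 383 and of the 1203 lost 955. The number of raised genes was 1645 under scaling by library totals and 367 under scaling by mitochondrial reads, so how many genes are called raised rests on the scaling.

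On the chromosomes, loss was unevenly spread. The X chromosome had 237 loaded genes, of which 172 were lost (72.6%), 41 reduced (17.3%), 12 persisted (5.06%) and 3 were raised. Their median log2 fold change was -4.53, or -4.35 with genes at 0 reads set to the floor. On the 5 autosomes together, 969 of 3402 loaded genes were lost (28.5%) and 1054 persisted (31.0%), with a median of -0.20. Among autosomes the share lost ran from 22.7% on chromosome III to 36.6% on chromosome V. The X chromosome is largely silent in the germline, and few of its genes carried small RNA at this level, 237 of 2879 in the table against 3402 of 19007 on autosomes.

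The few X-linked genes at which small RNAs persisted included F23A7.5, mrp-4, which encodes an ABC transporter, and meg-3, which encodes a disordered P granule protein. mrp-4 had 243 and 237 CPM in rde-3 mut-16(DE6R) and 169 and 218 CPM in WT. meg-3 had 39.1 and 57.6 CPM in rde-3 mut-16(DE6R) and 33.4 and 42.8 CPM in WT, and its groups overlapped. Its close relative meg-4, also X-linked, was reduced, with 23.5 and 24.7 CPM in rde-3 mut-16(DE6R) and 76.0 and 93.2 CPM in WT. The vitellogenin gene vit-2, which encodes a yolk protein made in the intestine, was among the 3 X-linked genes that were raised, with 294 and 244 CPM in rde-3 mut-16(DE6R) and 24.3 and 31.5 CPM in WT.

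Position within a chromosome also differed between the classes. On autosomes, 625 of 969 lost genes (64.5%) had their midpoint in the outermost 25% at either end of the chromosome, against 35.0% of persisting genes, 34.5% of raised genes and 44.1% of all loaded genes. Lost genes on autosomes were also often neighbours of one another. There, the nearest loaded gene that did not overlap was lost for 45.9% of lost genes and for 15.2% of persisting genes. It persisted for 22.9% of lost genes and for 38.1% of persisting genes. Of all loaded autosomal genes, 28.5% were lost and 31.0% persisted. The median gap to that neighbour on autosomes was 3480 bases for lost genes and 1053 bases for persisting genes. On the X chromosome the nearest loaded gene was lost for 70.9% of lost genes, near the 72.6% lost among all its loaded genes. Neighbouring genes can be copies of one another and are not independent, so no test is given.

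**Figure D4:**
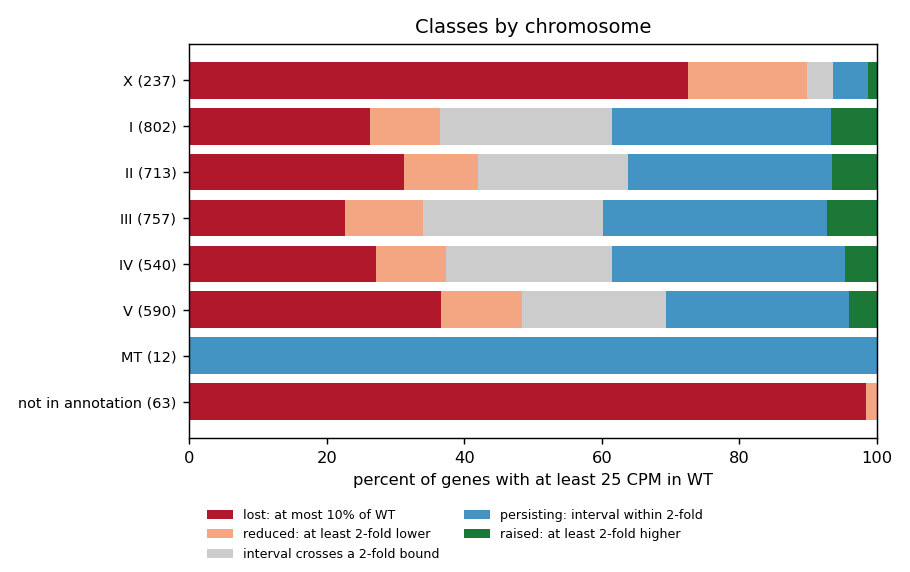
Percent of genes with at least 25 CPM in WT that fell in each class (horizontal axis), by chromosome, for mitochondrial genes and for identifiers that the annotation does not hold. Lost genes make up 72.6% of the X chromosome and none of the 12 mitochondrial genes.

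Most loaded pseudogenes and unannotated identifiers lost their small RNAs. Of 1918 pseudogenes in the table, 286 were tested. Of these, 247 fell, 8 rose and 31 did not pass, beside 37.9% lower and 26.8% higher over all tested genes. The median log2 fold change of the tested pseudogenes was -4.61 (-4.37 with genes at 0 set to the floor) beside -0.03 over all tested genes. A pseudogene low in the double mutant was tested only if it was high in WT or mut-16(DE6R), so these counts were partly fixed by the filter. Among all loaded genes 32.4% were lost and 29.0% persisted. Of the 229 loaded pseudogenes, 186 were lost and 11 persisted. The persisting ones included prg-2, a pseudogene related to the Piwi Argonaute gene prg-1, with 249 and 303 CPM in rde-3 mut-16(DE6R) and 242 and 251 CPM in WT, and how reads that fit more than 1 copy were assigned is not given in the sources used here. Of the 63 loaded identifiers that the annotation does not hold, 62 were lost and 1 was reduced. The most loaded of the lost pseudogenes and identifiers differed in the mut-16(DE6R) strain: Y17D7C.3 kept 13.1% of WT there, and T27C5.9, an identifier without annotation, had 142 and 144 CPM in rde-3 mut-16(DE6R), 3541 and 3521 CPM in mut-16(DE6R) and 6939 and 7200 CPM in WT.

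Known targets of the mutator pathway that were loaded in WT were lost on the TMM scale. ERGO-1 is an Argonaute that binds 26G small RNAs, and its targets, many of them duplicated genes and pseudogenes, receive secondary 22G RNAs. Of 20 ERGO-1 targets listed, 15 were tested and 15 fell, with a median log2 fold change of -5.32, and the 14 loaded ones were lost. Over all genes, 37.9% of those tested fell and 32.4% of those loaded were lost. The filter on low counts partly fixed the count of targets that fell, as for the pseudogenes. The lists were also chosen with earlier results of these data known. F39E9.7 had 110 and 98.8 CPM in rde-3 mut-16(DE6R) and 4527 and 4630 CPM in WT. E01G4.5 had 110 and 93.3 CPM in rde-3 mut-16(DE6R) and 4392 and 4437 CPM in WT, or 2.29% of WT. The list of genes often used as targets of the piRNA and nuclear RNAi pathways (bath-45, F15D4.5, bath-13, C38D9.2 and xol-1) fell in 5 of 5 cases, with a median of -4.38, and those 5 were lost, or 2 of them with scaling by totals, where 5 still fell. bath-45 (chromosome II, 13123020 to 13125189), a gene of the BTB and MATH domain family, had 313 and 332 CPM in rde-3 mut-16(DE6R) and 7768 and 7979 CPM in WT, or 4.10% of WT (3.63 to 4.64%). xol-1, the X-linked switch gene of sex determination and a piRNA target, had 0 reads in both rde-3 mut-16(DE6R) libraries and 60 and 54 reads in the WT libraries, which is at least 35.8-fold lower in the double mutant at a floor of 3 reads over the group. The same ERGO-1 targets had a median of -1.67 in mut-16(DE6R) against WT, and the 5 reporter targets one of -1.28.

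In several gene families named by shared domains, most of the loaded genes were lost, against 32.4% of all loaded genes. Among F-box genes, 17 of 17 loaded fbxb genes and 38 of 47 loaded fbxa genes were lost, while 2 fbxa genes persisted and 1 was raised. fbxb-14 had 124 and 139 CPM in rde-3 mut-16(DE6R) and 2388 and 2540 CPM in WT. Of 25 loaded bath genes 18 were lost and 1 persisted, of 13 fbxc genes 7 were lost and 5 reduced, and of 15 nuclear hormone receptor (nhr) genes 12 were lost. nhr-249 had 11.0 and 5.49 CPM in rde-3 mut-16(DE6R) and 551 and 612 CPM in WT. The families hold recent duplicates, so reads may have been divided or shared among copies, and a family's count is not a count of independent genes.

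Losses were few in a number of other families, picked out after their counts were seen. Over all loaded genes 32.4% were lost, 11.0% reduced, 29.0% persisting and 5.55% raised. Of 16 loaded nucleoporin (npp) genes, 0 were lost or reduced, 5 persisted and 3 were raised. Translation initiation factors (eif) also had 0 lost or reduced, and 9 of 15 persisted. Small mitochondrial ribosomal proteins (mrps), with 5 of 14 persisting, and pre-mRNA processing genes (prp), with 3 of 11, had 0 lost or reduced too, and their shares persisting were near that of all loaded genes. The remaining members of these 4 families were raised or not resolved. Other families had losses: of 11 loaded ubiquitin-conjugating enzyme (ubc) genes 2 were lost, and of 11 dnj genes, for chaperone partners, and 18 vps genes, for vesicle sorting, 1 each was lost and 1 each reduced. Of 28 loaded mrpl genes, for the large mitochondrial ribosomal subunit, 0 were lost and 1 was reduced. prp-8, a core splicing factor, had 490 and 450 CPM in rde-3 mut-16(DE6R) and 254 and 248 CPM in WT, and its 95% interval crossed the 2-fold bound. Other scalings move these genes up together, so the distinction between persisting and raised members is not firm, whereas none of those in the npp, eif, mrps and prp families was lost or reduced.

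**Figure D5:**
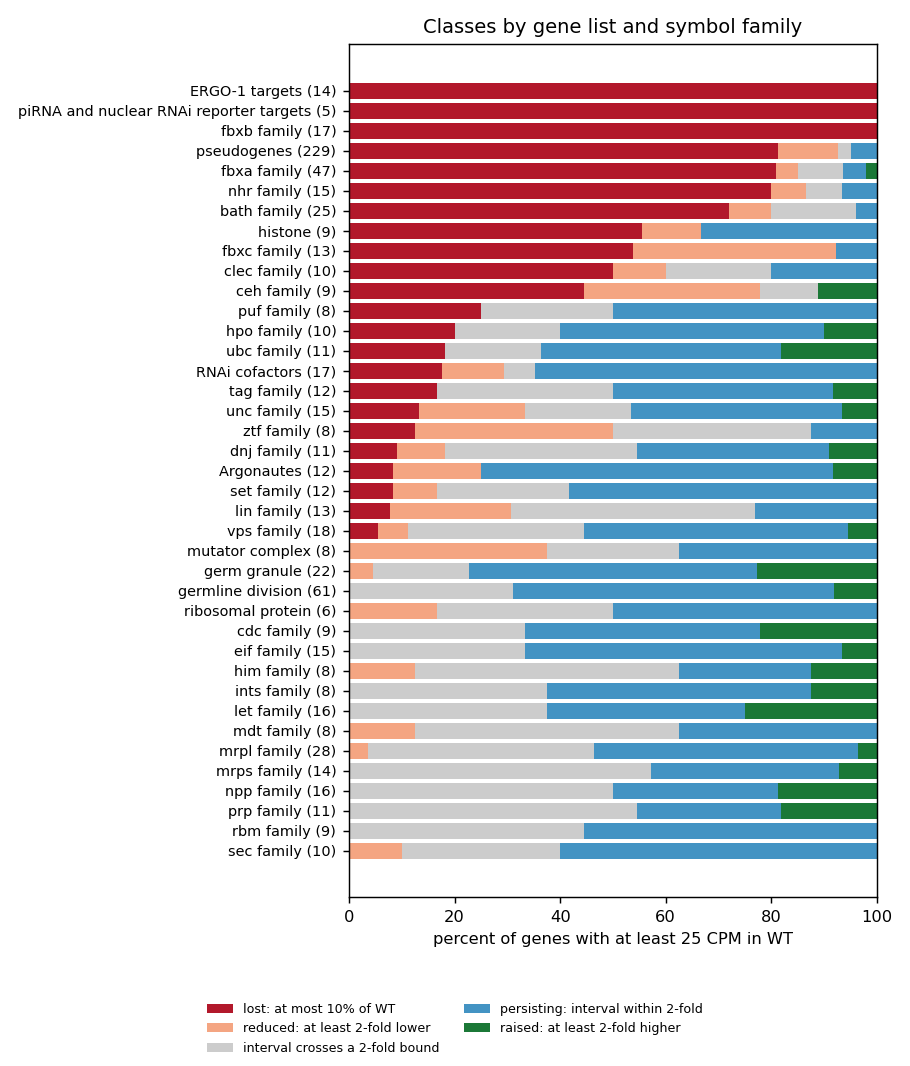
Percent of loaded genes in each class (horizontal axis) for the gene lists and for symbol families with at least 8 loaded genes, with the number of loaded genes beside each name. ERGO-1 targets, pseudogenes and F-box genes are mostly lost, while germline division and nucleoporin genes have none that were lost.

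Genes of the small-RNA machinery were themselves covered by small RNAs, and they fell in different classes. In the mutator complex, 4 of 9 tested genes fell, 3 rose and 2 did not pass, near the 37.9% lower and 26.8% higher over all tested genes. Their median log2 fold change of -0.41 turns to 0.69 under scaling by library totals and 0.13 under upper-quartile scaling. mut-7, which encodes an exonuclease, had 476 and 418 CPM in rde-3 mut-16(DE6R) and 275 and 275 CPM in WT, and mut-14, a DEAD-box helicase gene, had 346 and 309 CPM in rde-3 mut-16(DE6R) and 188 and 198 CPM in WT. Both rose and were within the persisting class, as was nyn-1, which encodes a ribonuclease, though their intervals come close to the 2-fold bound: 0 mutator genes were in that class without rde-3 mut-16(DE6R) replicate 2 and 1 without WT replicate 2. smut-1, a helicase gene related to mut-14 that overlaps crt-1 on the opposite strand, was reduced, with 18.8 and 22.0 CPM in rde-3 mut-16(DE6R) and 80.5 and 75.6 CPM in WT. rrf-1, an RNA-dependent RNA polymerase gene, and rde-8, a ribonuclease gene, were also reduced, to 48.4% and 41.6% of WT, but rrf-1 turns direction when libraries are scaled by totals and misses the threshold without WT replicate 1 (edgeR adjusted p = 0.0628).

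Of 14 Argonaute genes tested, 5 fell, 5 rose and 4 did not pass, with a median of 0.15, beside 37.9% lower and 26.8% higher over all tested genes. With scaling by totals 3 fell, 10 rose, 0 persisted and 8 were raised. Without rde-3 mut-16(DE6R) replicate 2, 3 fell, and without WT replicate 1, 3 rose. Among the 12 loaded ones 8 persisted, 2 were reduced, 1 was raised and 1 was lost. prg-1, the Piwi Argonaute that binds piRNAs, had 1031 and 946 CPM in rde-3 mut-16(DE6R) and 1085 and 1199 CPM in WT, or 86.3% of WT. hrde-1, the nuclear Argonaute of the germline, had 759 and 774 CPM in rde-3 mut-16(DE6R) and 717 and 694 CPM in WT. wago-1 was raised, with 304 and 303 CPM in rde-3 mut-16(DE6R) and 132 and 130 CPM in WT. Its relative wago-2, annotated as a pseudogene, was reduced, with 125 and 103 CPM in rde-3 mut-16(DE6R) and 807 and 728 CPM in WT. Whether reads were shared between wago-1 and wago-2 was not tested. sago-1, a somatic secondary Argonaute, was lost, with 1.56 and 0 CPM in rde-3 mut-16(DE6R) and 45.6 and 52.9 CPM in WT.

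Of 22 RNAi cofactor genes tested, 5 fell, 6 rose and 11 did not pass, with a median of 0.05, so the share that fell was below, and the share that rose near, that over all tested genes. DESeq2 called 3 higher, upper-quartile scaling 12 and scaling by totals 17. Of the 17 loaded ones 11 persisted, or 0 with scaling by totals. The 3 lost genes were sid-1, eri-6 and eri-7, of which 1 stayed at or under 10% of WT with scaling by totals. sid-1 encodes the channel that imports double-stranded RNA, and it had 43.8 and 50.7 CPM in rde-3 mut-16(DE6R) and 717 and 810 CPM in WT, or 6.22% of WT. eri-6, which encodes part of a helicase and overlaps 2 other genes, had 81.4 and 101 CPM in rde-3 mut-16(DE6R) and 2832 and 3083 CPM in WT. parn-1, a piRNA-trimming ribonuclease gene that overlaps frpr-15 on the opposite strand, and nrde-1, a nuclear RNAi gene, were reduced to 16.1% and 14.9% of WT. The RNA-dependent RNA polymerase genes ego-1 and rrf-3 persisted at 142% and 161% of WT, and nrde-2, another nuclear RNAi gene, had 681 and 748 CPM in rde-3 mut-16(DE6R) and 697 and 757 CPM in WT.

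Most loaded genes of the germline division list persisted on the TMM scale. Of 61 tested, 43 rose, 3 fell and 15 did not pass, beside 26.8% higher and 37.9% lower over all tested genes. Their median log2 fold change was 0.62 beside -0.03 over all tested genes. Of the same 61 genes, all loaded, 0 were lost or reduced, 37 persisted, 5 were raised and 19 were not resolved. With libraries scaled by totals, 60 rose and 2 persisted. klp-15, which encodes a kinesin of the spindle, had 580 and 560 CPM in rde-3 mut-16(DE6R) and 621 and 611 CPM in WT. cdk-1, the mitotic kinase gene, had 441 and 531 CPM in rde-3 mut-16(DE6R) and 518 and 605 CPM in WT, so its groups overlapped. spd-1, a gene for a midzone protein, had 699 and 652 CPM in rde-3 mut-16(DE6R) and 536 and 567 CPM in WT.

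Of 25 germ granule genes tested, 13 rose, 3 fell and 9 did not pass, beside 26.8% higher and 37.9% lower over all tested genes. Their median was 0.42, and 12 of the 22 loaded ones persisted. With scaling by totals 2 persisted and 16 were raised, and with upper quartile 6 persisted and 10 were raised. glh-1, a Vasa-like helicase of P granules, had 444 and 483 CPM in rde-3 mut-16(DE6R) and 633 and 780 CPM in WT, or 65.4% of WT, and it turns direction when libraries are scaled by totals. glh-4, another gene of that family, had 360 and 343 CPM in rde-3 mut-16(DE6R) and 287 and 330 CPM in WT. With TMM 5 were raised, or 3 without rde-3 mut-16(DE6R) replicate 2 or without either WT library. The oocyte genes oma-1 and mex-5 were raised to 208% and 225% of WT. Of 53 ribosomal protein genes tested, 12 rose, a smaller share than the 26.8% over all tested genes, 2 fell and 39 did not pass, with a median of 0.66, and just 6 were loaded. The number that rose was 5 to 7 when any 1 of the 4 libraries was left out, 1 with DESeq2 and 47 with scaling by totals.

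Histone genes fell in different classes. Of 81 histone genes listed, just 13 had enough reads to be tested. Of those, 7 fell, 2 rose and 4 did not pass, beside 37.9% lower and 26.8% higher over all tested genes. Of the 9 loaded ones 5 were lost, 1 was reduced and 3 persisted. Among all loaded genes 32.4% were lost, 11.0% reduced and 29.0% persisting, so the share of histone genes that persisted was near that background. The most loaded were 3 linker histone genes. his-24 had 39.1 and 41.1 CPM in rde-3 mut-16(DE6R) and 1864 and 2040 CPM in WT, or 2.06% of WT. hil-8 had 62.6 and 74.1 CPM in rde-3 mut-16(DE6R) and 2058 and 2195 CPM in WT, and hil-3 17.2 and 20.6 CPM in rde-3 mut-16(DE6R) and 671 and 605 CPM in WT. In the mut-16(DE6R) libraries his-24 had 1439 and 1446 CPM and hil-8 186 and 208 CPM, so these genes differed in how much the mut-16 allele alone left. Both were below WT there and above the double mutant.

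Some intestine and muscle genes carried more small-RNA reads in the double mutant. Of 12 intestine genes tested, 12 rose, and of 5 muscle genes tested, 5 rose, beside 26.8% higher over all tested genes. These counts carry little weight as a count of the lists, since a gene with few reads in WT was tested only if a mutant was high: 1 of the 12 intestine genes and 0 of the 5 muscle genes reached 25 CPM in WT. Without rde-3 mut-16(DE6R) replicate 2 or WT replicate 2, and with DESeq2, 3 of the 5 muscle genes passed. The lists held 21 genes each in the table. The summed level of the intestine list was 868 and 726 CPM in rde-3 mut-16(DE6R), 324 and 357 CPM in mut-16(DE6R) and 74.4 and 94.5 CPM in WT, and that of the muscle list 266 and 268 CPM in rde-3 mut-16(DE6R), 95.6 and 102 CPM in mut-16(DE6R) and 63.8 and 65.5 CPM in WT. unc-54, the major body-wall myosin gene, had 153 and 136 CPM in rde-3 mut-16(DE6R) and 19.7 and 20.2 CPM in WT. vit-5, a vitellogenin gene near-identical to others, had 92.3 and 80.9 CPM in rde-3 mut-16(DE6R) and 12.15 and 7.56 CPM in WT. Reads on these abundant messages may be 22G RNAs or fragments of the messages, and which they are was not tested.

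The few cuticle and neuron genes with at least 25 CPM in WT, 4 and 3, lost their small RNAs. Over all genes, 37.9% of those tested fell and 32.4% of those loaded were lost. Of 175 cuticle genes that the table lists, 7 were tested and 7 fell, and the 4 loaded ones were lost. A gene low in the double mutant was tested only if it was high in WT or mut-16(DE6R), so these counts, like those for the 5 tested of 23 neuron genes, were largely fixed by the filter. col-71, a collagen gene, had 1.56 and 5.49 CPM in rde-3 mut-16(DE6R), 214 and 233 CPM in mut-16(DE6R) and 424 and 451 CPM in WT, which is 0.863% of WT (95% interval 0.354 to 2.11%). col-111, which overlaps psr-1 on the opposite strand, had 1 and 2 reads in rde-3 mut-16(DE6R) and 97 and 128 in WT, a ratio of 70.7 with an exact counting interval of 23.9 to 345. Of 5 neuron genes tested, 3 fell and 2 did not pass. egl-21, which encodes a neuropeptide-processing enzyme, had 4.69 and 5.49 CPM in rde-3 mut-16(DE6R) and 216 and 212 CPM in WT. ida-1, of dense-core vesicles, had 0 reads in both rde-3 mut-16(DE6R) libraries and 42 and 53 in WT, at least 29.8-fold lower. Of 66 sperm genes that the table lists, 3 were tested, of which 2 fell and 1 did not pass. spe-15, a myosin gene that overlaps gst-25 on the opposite strand, was lost. It had 0 reads in both rde-3 mut-16(DE6R) libraries and 22 in each WT library, at least 13.8-fold lower. ssp-16 did not pass, with 12.5 and 23.3 CPM in rde-3 mut-16(DE6R) and 16.7 and 10.1 CPM in WT. The summed level of the sperm list was 78.2 and 76.8 CPM in rde-3 mut-16(DE6R) and 109 and 80.6 CPM in WT.

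The bound of 10% is a matter of definition. Among genes above 1000 CPM in WT, the nearest outside it were Y56A3A.41 and F43E2.1. Y56A3A.41 stood at 10.0% of WT, with 238 and 208 CPM in rde-3 mut-16(DE6R) and 2175 and 2268 CPM in WT, and F43E2.1 at 11.8%, with 228 and 333 CPM in rde-3 mut-16(DE6R) and 2438 and 2371 CPM in WT. The nearest inside it was the pseudogene Y52B11A.18 at 8.91%, with 172 and 184 CPM in rde-3 mut-16(DE6R) and 1846 and 2149 CPM in WT. In the sparse range between 10 and 50% lay the 410 reduced genes, at a median of 26.2% of WT.

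The count of lost genes moved less with scaling than the count of persisting genes. Scaling by library totals called 911 genes lost (75.7% of the 1203), totals without F56H9.8 865 (71.9%) and upper-quartile scaling 1079 (89.7%). All of these were among the 1203, which the upward shift of every gene under these scalings largely fixed in advance. Under the same 3 scalings 251, 198 and 509 genes persisted. On simulated counts of 4971 genes, 34 of 34 genes set to 1/16 of their level and 11 of 34 genes set to 1/2 (32.4%) were called changed. Modest changes were thus often missed in the simulation. Its genes were drawn without regard to the minimum of 25 CPM, so the share missed among loaded genes may differ.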

How the data were processed

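Small RNAs of whole worms were extracted with Trizol, treated with PIR-1, ligated to linkers, amplified and size-selected, per the labels' protocols. Cutadapt 4.9, Bowtie 1.3.1 and the WBcel235 genome are named in the submitters' processing notes, with no settings. The counting program, the use of strand and the handling of multi-mapping reads and PCR duplicates are not stated in the labels or file headers, so reads of overlapping genes and of near-identical copies cannot be told apart. The authors deposited whole-number read counts per transcript for 6 libraries (2 each of rde-3 mut-16(DE6R), mut-16(DE6R) and WT), which were used. The deposited counts of reads on a transgene in the other 20 libraries were not used here.

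Of 34324 named identifiers, 33755 were found in the WBcel235 annotation by transcript and 190 by sequence name, and 379 were not found. They were summed to 22271 genes, 373 of them not in the annotation. The 1 blank identifier held 0 reads. The test was that of edgeR 4.0.16 under R 4.3.3 (quasi-likelihood F test, robust, TMM factors, 1 coefficient per group, minimum count 10, minimum total 15), on the 6 libraries together, with 3 residual degrees of freedom and Benjamini-Hochberg adjustment over 5312 genes at 0.05. These held 98.4 to 98.7% of the reads in the double mutant and WT libraries. SEs come from the fitted counts and the moderated quasi-dispersion, which was nearly the same for all genes, and intervals are 95%. They and the floor of 3 counts cover counting error and that pooled spread. With 2 libraries a group, an exact permutation test of 1 value cannot go below p = 0.333.

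TMM factors were 1.26 in both rde-3 mut-16(DE6R) libraries and 0.582 and 0.593 in the WT ones. Replicates differed beyond counting noise (chi-square per degree of freedom 1.13 in rde-3 mut-16(DE6R), 1.54 in WT), so they are not 1 library deposited more than once. The fit was tested on simulated data, in which 4791 of 4971 genes were left unchanged. As 64.7% of tested genes were called in the real libraries, the simulation could not check the scaling.

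Genes named are mut-16, mut-2 and F56H9.8, the 8 with the highest WT level in the lost, persisting and raised classes (lost and raised where libraries do not overlap), up to 3 tested members of each list and the top member of each symbol family with at least 8 loaded genes, by WT level. Others named (xol-1, C38D9.2, F23A7.5, tebp-2, T27C5.9, prg-2, meg-3, meg-4, mrp-4, ostb-1, Y56A3A.41, F43E2.1, Y52B11A.18, sago-1, wago-1, smut-1, rrf-1 and rde-8, nrde-1, parn-1, ego-1, rrf-3, drh-3, ergo-1, henn-1, eri-7, oma-1 and mex-5) were chosen after their values were seen. Of the raised genes that this rule names, 1 is not reported here. The members and the lists were chosen with earlier results of these data known. Alternatives were other scalings, DESeq2 1.42.0, no filter on low counts, a WT minimum of 50 CPM, a fit of the 2 groups alone, a replicate block and leaving out each library.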

Additional observations from a re-analysis of the deposited data

How the results depend on the processing

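The number of genes higher in rde-3 mut-16(DE6R) was 2944 when scaled by library totals, 3069 by totals that leave out F56H9.8 and 2369 by upper quartile, where TMM gave 1424. Persisting genes (1078 with TMM) numbered 251, 198 and 509 under the same 3 scalings, and raised genes (206) numbered 1645, 1764 and 998, and 367 with mitochondrial reads. With a WT minimum of 50 CPM there were 236 reduced and 83 raised genes. These scalings moved the median log2 fold change of all tested genes from near 0 to 1.06, 1.22, 0.50 and 0.10. The split of higher to lower calls was 989 to 2299 with DESeq2, 1231 to 2699 with no filter and 1626 to 1893 with mitochondrial reads. Lost genes numbered between 865 and 1213 under every alternative other than the WT minimum.

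The replicate numbers did not pair the libraries (correlations of deviations between -0.0235 and -0.000684), and the replicate block gave 1997 lower, 1399 higher, 1203 lost, 410 reduced, 1069 persisting and 206 raised genes. Leaving out 1 library at a time gave 1803 to 2289 lower, 1021 to 1269 higher, 1160 to 1199 lost, 393 to 433 reduced, 859 to 977 persisting and 208 to 235 raised genes.

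Named genes near WT turned from a negative to a positive log2 fold change under those 3 scalings, given in the same order: COX3 (1.05, 1.21, 0.48), MTCE.12 (0.88, 1.03, 0.31), MTCE.16 (1.06, 1.21, 0.49), MTCE.21 (0.75, 0.90, 0.18), MTCE.26 (0.97, 1.12, 0.39, and 0.0019 with mitochondrial reads), MTCE.31 (0.81, 0.96, 0.24), MTCE.35 (0.95, 1.10, 0.37), cdk-1 (0.90, 1.05, 0.33), drh-3 (0.87, 1.02, 0.30), klp-15 (0.99, 1.15, 0.42), lin-13 (0.93, 1.08, 0.36), mdt-26 (0.68, 0.83, 0.11), mip-1 (0.73, 0.89, 0.16), nrde-2 (1.08, 1.23, 0.51), prg-1 (0.89, 1.04, 0.32), tebp-2 (0.94, 1.09, 0.37) and unc-103 (0.95, 1.10, 0.38). Also positive under all 3, with upper quartile short of the threshold, were ergo-1 (1.04, 1.19, 0.47) and henn-1 (1.05, 1.21, 0.49). Under the first 2 scalings and not upper quartile, F56H9.8 (0.13, 0.28), glh-1 (0.49, 0.64), rrf-1 (0.052, 0.20) and ugt-42 (0.42, 0.57) turned. The cause of these turns is the scaling itself, which adds 1 value to every gene.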

Other observations

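Of 1370 loaded genes that were at least 2-fold lower in mut-16(DE6R) than in WT, 734 were at least 2-fold lower in rde-3 mut-16(DE6R) than in mut-16(DE6R), and 40 were at least 2-fold higher, of which 21 were in the persisting class. Each of these calls also needed an adjusted p under 0.05 by edgeR. These genes were picked by their values, and the comparisons share libraries, so the counts are a description. ugt-42 had 4288 and 4732 CPM in rde-3 mut-16(DE6R) and 1860 and 2011 CPM in mut-16(DE6R), beside 6871 and 7628 CPM in WT. ostb-1, which encodes an oligosaccharyltransferase subunit, had 333 and 307 CPM in rde-3 mut-16(DE6R) and 109 and 119 CPM in mut-16(DE6R), beside 251 and 268 CPM in WT.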
